A study of Homo sapiens with 30 samples.

Results

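The glucocorticoid receptor gene NR3C1, the prednisone-activating enzyme gene HSD11B1 and 8 genes known to respond to glucocorticoids (TSC22D3, FKBP5, PER1, ZBTB16, DUSP1, SGK1, GLUL and IL7R) were followed in malignant T-cell lines exposed to CHOEP. All array probes carrying 1 of these 10 symbols were taken, which gave 27 of 47323 probes with values. Of these, 21 probes for 9 of the 10 genes passed the detection filter (detection p under 0.01 on at least 3 arrays). In all 22652 probes were kept, of which 17125 had 1 gene symbol and covered 12482 genes. The set was selected on CHOEP differences of TSC22D3, FKBP5 and IL7R seen earlier in these arrays, and filled with the receptor and its known partners and targets. The question was how much receptor and enzyme transcript each line had without drug, how each gene responded, and whether lines with more receptor or enzyme transcript responded more.

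Illumina HumanHT-12 v4 BeadChips, which give 1 signal per probe, were used to profile total RNA from 5 lines: HDMAR and JURKAT (T-cell leukaemia), SUPT1 (lymphoblastic TCL), KARPAS (ALCL) and HH (cutaneous TCL). Each line was left untreated or given CHOEP, which combines cyclophosphamide, doxorubicin, vincristine, prednisone and etoposide, for 24 h, with 3 arrays per group and 30 arrays in all. Each line received CHOEP at its own IC50, so the doses differ between lines and sizes of response are set side by side without a matched dose. All treated cultures received the 5 drugs together, and the part of prednisone cannot be told apart from that of the other 4 drugs. Each group is 1 tumour line in culture with 3 arrays labelled as replicates. SEs and p-values reflect how far such repeats vary, pooled over all groups, so a gene's CHOEP difference has the same SE in every line.

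The glucocorticoid receptor rests in the cytoplasm in a complex with HSP90 and its partner proteins. Once it binds a steroid it enters the nucleus and switches genes on or off, and in lymphoid cells this can end in growth arrest and death, which is why prednisone is part of the regimen. Prednisone itself binds the receptor poorly, and the enzyme encoded by HSD11B1 reduces it to the active prednisolone. Glucocorticoids are known to lower receptor transcript in many cells and to raise it in some T-cell leukaemia lines.

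The receptor binds as a dimer to a near-palindrome whose left arm is AGAACA. The full element was searched as AGAACA, then any 3 bases, then TGTTC, on both strands, in windows of 300 bases that begin 250 bases before each annotated transcript start (RefSeq, GRCh38.p14). It was found in 4 of 35116 windows of all genes (0.0114%) and in 0 of the 22 windows of the genes followed here, among which ZBTB16 had no window. The full element contains the single arm, so the 2 searches overlap. The single arm AGAACA was found in 14.8% of all windows and in 2 of the 22. These 2 stretches, in FKBP5 (chr6:35728566-35728595, minus strand, where the arm begins at base 1 of the transcript) and in SGK1 (chr6:134177839-134177868, minus strand, where it begins at base 6 of an inner annotated start), are shown with the arm in capitals. The 250 bases before the most upstream start of TSC22D3 (chrX:107775989-107776238, minus strand) are added because this gene had the largest response, and hold neither motif.
FKBP5: caccactaccccAGAACAaactcctacctc
SGK1: ggggttcataacAGAACAgggatagccgtc
TSC22D3: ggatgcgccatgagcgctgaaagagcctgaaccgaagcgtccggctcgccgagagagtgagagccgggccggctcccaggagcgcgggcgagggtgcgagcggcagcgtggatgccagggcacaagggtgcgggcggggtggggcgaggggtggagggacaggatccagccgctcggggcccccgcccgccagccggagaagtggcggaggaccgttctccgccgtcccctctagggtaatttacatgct

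Each array detected 16003 to 18239 probes, and all 30 arrays correlated best with another array of their own line. Of 10 T-cell markers, HDMAR and SUPT1 had 10 detected on all 3 arrays of each group and JURKAT at least 9. KARPAS lacked CD3E, CD3G, CD2, LCK and CD28 in both groups, and HH lacked LCK and CD28. In KARPAS the ALCL kinase ALK was detected on all arrays but TNFRSF8, which encodes the ALCL marker CD30, on none. Each line lay on a chip of its own and CHOEP-treated arrays at fixed positions on it, so line and chip, and treatment and position, cannot be told apart.

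A gene was represented by its brightest probe and was called when the fold change between 3 CHOEP-treated and 3 untreated arrays was at least 2 with an adjusted p under 0.05 (limma, adjusted over all kept probes). The calls describe the genes and test nothing, since the set was picked with the effect of CHOEP in view. In HDMAR 3 of the 9 measured genes rose (NR3C1, TSC22D3 and FKBP5) and 0 fell, where 1.86% of all genes rose and 1.8% fell. In SUPT1 3 rose (TSC22D3, FKBP5 and IL7R) and 0 fell, against 1.59% and 0.817% of all genes. In KARPAS 3 rose (TSC22D3, FKBP5 and GLUL) and HSD11B1 fell, against 0.569% and 0.729%. In HH 4 rose (TSC22D3, FKBP5, GLUL and IL7R) and 0 fell, against 1.92% and 0.857%. In JURKAT only TSC22D3 rose and 0 fell, against 0.0481% and 0%. TSC22D3 was thus called in 5 lines and FKBP5 in 4, whereas ZBTB16, DUSP1 and SGK1 were called in none.

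**Figure D1:**
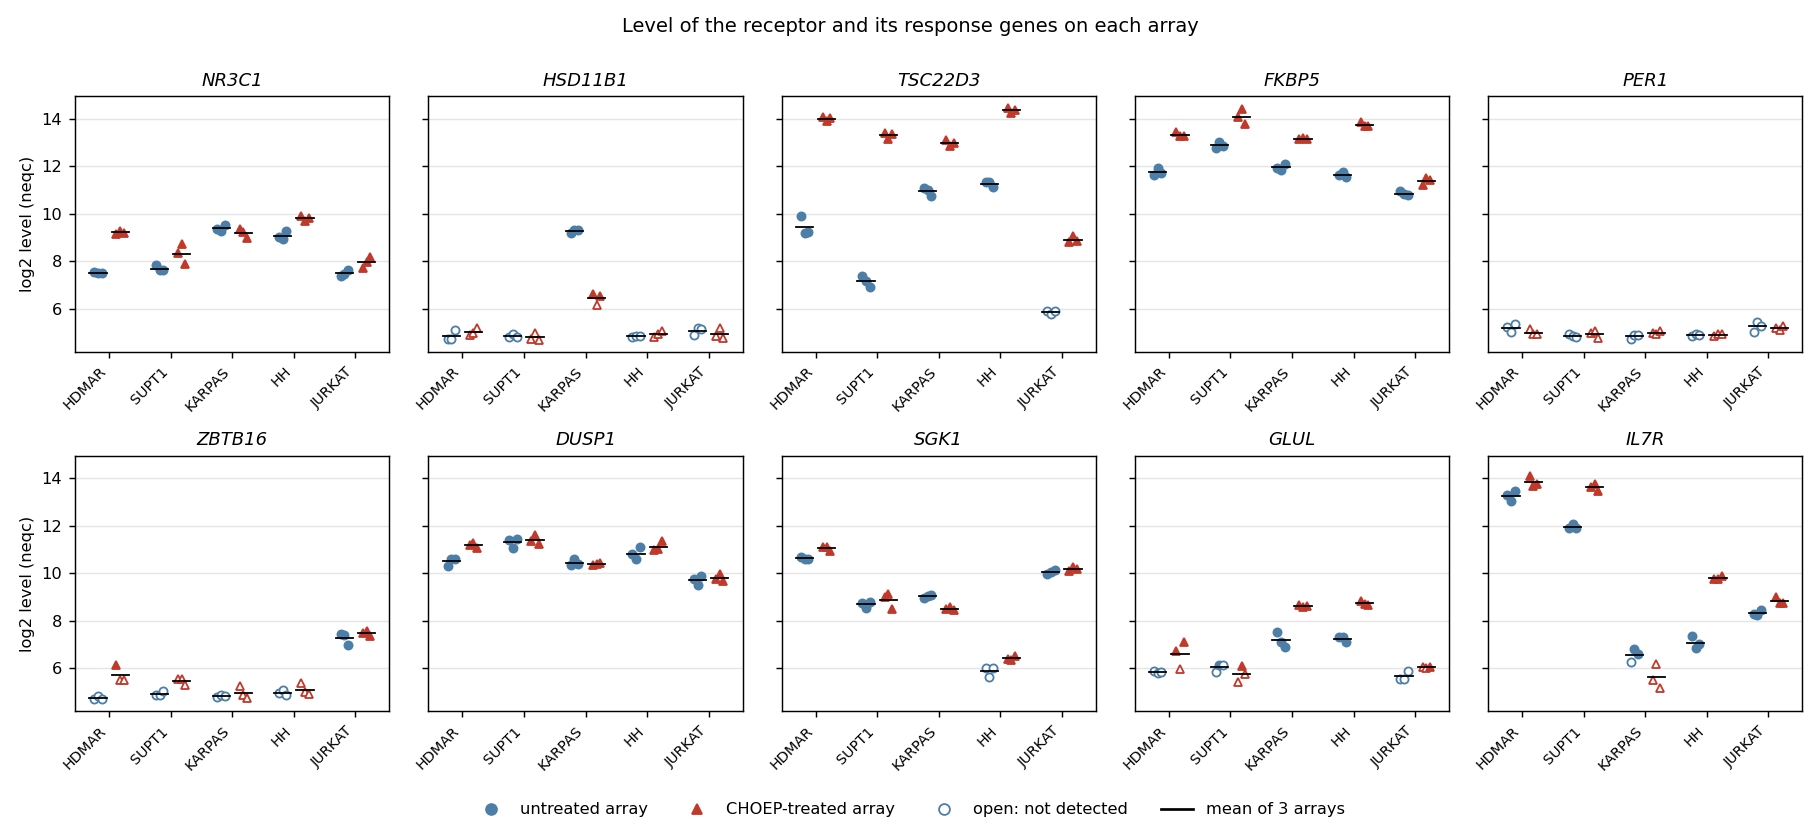
Log2 level of each gene's brightest probe (y axis) on each of the 30 arrays, by line (x axis); blue circles are untreated and red triangles CHOEP-treated arrays, open symbols are arrays on which the probe was not detected, and black bars are means of 3 arrays. TSC22D3 lies higher with CHOEP in every line, HSD11B1 is detected in KARPAS alone, and PER1 is detected on no array.

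Counting arrays rather than fold changes, the 3 CHOEP-treated arrays lay above the 3 untreated arrays for 8 of the 9 genes in HDMAR, against 21.7% of all genes. The same held for 5 in SUPT1 (15.3%), 6 in HH (20.1%), 5 in JURKAT (6.07%) and 3 in KARPAS (10.7%). These counts include readings below background, among them ZBTB16, detected on no array of SUPT1 and on 1 treated array of HDMAR. In KARPAS 3 genes, HSD11B1, SGK1 and IL7R, had all CHOEP-treated arrays below all untreated ones, against 12.3% of all genes. In the other 4 lines 0 of the 9 did, against 23.3% in HDMAR, 16.5% in SUPT1, 22.2% in HH and 8.41% in JURKAT. Not all 9 could be seen to fall there. HSD11B1 was detected on no array of these 4 lines, and ZBTB16 on no untreated array of HDMAR, SUPT1 or HH. The brightest probe was also detected on no untreated array for TSC22D3 in JURKAT, SGK1 in HH, and GLUL in HDMAR and JURKAT.

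The receptor transcript was detected on all 30 arrays. Untreated NR3C1 read 9.36, 9.26 and 9.52 on the log2 scale in KARPAS and 9.03, 8.92 and 9.25 in HH. It read 7.83, 7.61 and 7.62 in SUPT1, 7.56, 7.50 and 7.49 in HDMAR, and 7.38, 7.44 and 7.63 in JURKAT. KARPAS and HH thus formed an upper pair and the other lines a lower group, with no overlap between the groups. Untreated levels differed between lines (limma F test, adjusted p = 4.82e-13), as they did for 95.5% of all genes. In order, KARPAS exceeded HH by 0.31 (SE 0.15, adjusted p = 0.0819) and HH exceeded SUPT1 by 1.38 (SE 0.15, adjusted p = 7.52e-09). SUPT1 exceeded HDMAR by 0.17 (adjusted p = 0.371) and HDMAR exceeded JURKAT by 0.03 (adjusted p = 0.883), so that the 3 lower lines were not separated beyond the pooled spread. For comparison, the share of all genes past the threshold between 2 untreated lines was 59.1% for HDMAR and SUPT1, 71% for HDMAR and KARPAS, 68.4% for HDMAR and HH, 64.8% for HDMAR and JURKAT, 72.3% for SUPT1 and KARPAS, and 71.8% for SUPT1 and HH. It was 64.5% for SUPT1 and JURKAT, 62.8% for KARPAS and HH, 65% for KARPAS and JURKAT, and 67.3% for HH and JURKAT.

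With CHOEP, NR3C1 read 9.15, 9.28 and 9.20 in HDMAR, 1.70 (SE 0.15) above untreated, which is a 3.24-fold higher level. HDMAR went from the lower group to the level of untreated KARPAS and HH. In HH the treated arrays read 9.91, 9.67 and 9.83, which is 0.74 (SE 0.15) above untreated, and in SUPT1 8.33, 8.73 and 7.90, a difference of 0.64 (SE 0.15). In JURKAT they read 7.73, 7.98 and 8.17, a difference of 0.47 (SE 0.15, 95% confidence interval 0.16 to 0.79). In these 3 lines no treated array fell below an untreated one, and the fold change stayed under 2. KARPAS, with 9.35, 9.24 and 8.96 after CHOEP, had overlapping groups and a difference of -0.20 (SE 0.15, 95% confidence interval -0.51 to 0.12). The CHOEP difference of NR3C1 differed between the 5 lines (limma F test of the interaction, adjusted p = 4.72e-06), which 35.1% of all genes also did.

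NR3C1 had 3 kept probes, listed under different transcript accessions in the platform table, and they did not give the same picture in each line. The second probe, ILMN_1812384, differed by 2.59 (SE 0.15) in HDMAR and was called there, in SUPT1 and in HH. In SUPT1 and HH it was detected on no untreated array, so the bounds there were at least 2.26-fold and at least 1.45-fold higher. In KARPAS this probe was detected on no array, whereas the brightest probe was at its highest untreated level there. The third probe, ILMN_1668525, was detected only on the 3 CHOEP-treated arrays of HDMAR, at least 1.53-fold above untreated.

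**Figure D2:**
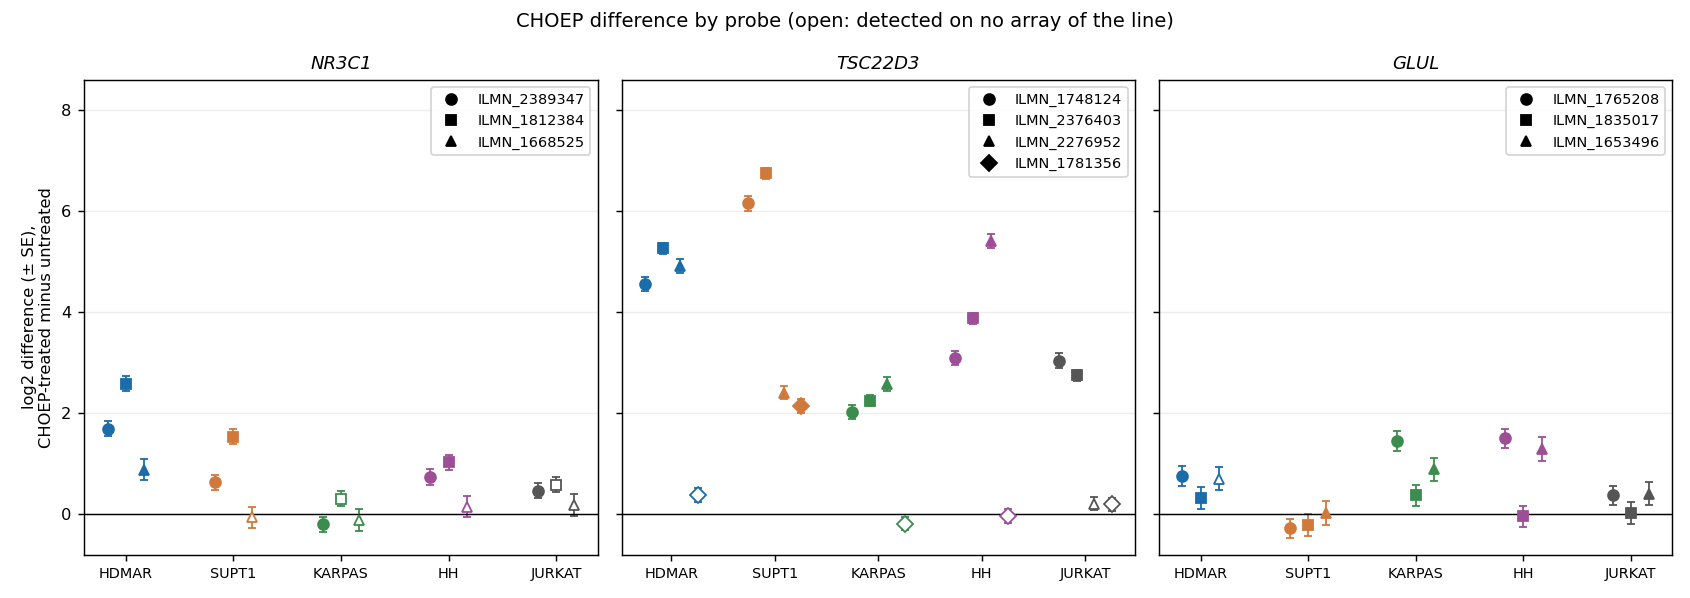
Log2 difference between CHOEP-treated and untreated arrays (y axis, ± SE, 3 against 3 arrays) for each kept probe of NR3C1, TSC22D3 and GLUL in each line (x axis); the shape gives the probe and open symbols mark probes detected on no array of the line. The 2 brightest TSC22D3 probes move alike. For NR3C1 the second probe lies above the brightest in every line, most in HDMAR and SUPT1, and for GLUL the probes part in HH.

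HSD11B1 was above background in KARPAS and in no other line. Its brightest probe was detected on 5 of 30 arrays, all from KARPAS, where the untreated arrays read 9.20, 9.29 and 9.31 and the CHOEP-treated arrays 6.61, 6.16 and 6.53. On the linear scale of the deposited signals this is 713.8, 649.6 and 624.8 against 171.8, 138.8 and 149.8. The level fell by 2.83 (SE 0.13), to a 7.12-fold lower one, and 1 of the 3 treated arrays was no longer above background. The second probe also fell and was not above background on any treated array, at least 4.72-fold lower.

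In the other 4 lines the mean untreated HSD11B1 reading lay between 4.84 and 5.07, with no array above background. The probe passed the detection filter through KARPAS alone, so no test between lines is given for it here. The size in KARPAS depends on the background correction, and was -2.07 in the authors' log2 values and -2.01 with quantile normalisation alone.

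TSC22D3 encodes GILZ, a leucine zipper protein known for its induction by glucocorticoids, and had the largest response. In SUPT1 the untreated arrays read 7.37, 7.16 and 6.91 and the CHOEP-treated arrays 13.41, 13.15 and 13.35, a difference of 6.16 (SE 0.15) or 71.5-fold. In HDMAR they read 9.88, 9.18 and 9.24 against 14.05, 13.89 and 14.03, a difference of 4.56 (23.6-fold). These 2 lines reached a high level from a low or middle start.

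HH started highest, at 11.33, 11.35 and 11.11, and reached 14.45, 14.25 and 14.37, a difference of 3.09 (8.54-fold). KARPAS started at 11.07, 11.00 and 10.76 and reached 13.11, 12.83 and 12.97, a difference of 2.03 (4.08-fold). JURKAT read 5.92, 5.78 and 5.88 untreated, with no probe of the gene above background, and 8.79, 9.04 and 8.87 with CHOEP, at least 6.98-fold higher. JURKAT with CHOEP thus still lay below untreated HDMAR, KARPAS and HH. The fitted difference in JURKAT was 3.04 (SE 0.15) but 2.02 in the authors' values and 1.96 with quantile normalisation alone, where KARPAS gave 1.99.

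Before treatment, TSC22D3 levels differed between lines (adjusted p = 7.39e-23). HH and KARPAS, the lines with the highest readings of the brightest receptor probe, were not separated (0.32, SE 0.15, adjusted p = 0.0635). KARPAS exceeded HDMAR by 1.51 and HDMAR exceeded SUPT1 by 2.29, each past the threshold, and JURKAT was below background. Of the 5 TSC22D3 probes 4 were kept. The second brightest gave differences of 5.27 in HDMAR, 3.88 in HH and 2.25 in KARPAS, and was at least 65.6-fold higher in SUPT1 and at least 2.86-fold higher in JURKAT, where no untreated array detected it. Another, ILMN_2276952, was detected on the treated arrays of all lines but JURKAT and on no untreated array. Its largest bound was in HH (at least 23.7-fold higher), with at least 13.1-fold in HDMAR, 5.05-fold in KARPAS and 1.83-fold in SUPT1. The dimmest kept probe was detected only in treated SUPT1, at least 1.94-fold higher.

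FKBP5, the co-chaperone that binds HSP90 in the receptor complex and lowers the receptor's affinity for steroid, was bright on all 30 arrays. HH read 11.64, 11.74 and 11.52 untreated and 13.85, 13.70 and 13.70 with CHOEP, a difference of 2.11 (SE 0.12). HDMAR read 11.61, 11.91 and 11.71 against 13.46, 13.27 and 13.27, a difference of 1.59 (SE 0.12). Both sets of treated arrays lay more than 1 log2 unit above every untreated array of their line.

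SUPT1 had the highest untreated FKBP5 level, 12.74, 13.01 and 12.86, and reached 14.09, 14.39 and 13.79, a difference of 1.22 (SE 0.12). KARPAS went from 11.91, 11.84 and 12.11 to 13.15, 13.19 and 13.15, a difference of 1.21 (SE 0.12). JURKAT, with the lowest level, went from 10.93, 10.81 and 10.78 to 11.21, 11.50 and 11.43, and its difference of 0.54 (SE 0.12, 95% confidence interval 0.28 to 0.79) was not called although the groups did not overlap. Untreated, SUPT1 exceeded KARPAS by 0.92 and HH exceeded JURKAT by 0.79 (adjusted p = 2.58e-07 and 3.49e-06), while HDMAR was separated from neither KARPAS nor HH (adjusted p = 0.141 and 0.454) and KARPAS exceeded HH by 0.32 (adjusted p = 0.0301). In SUPT1 the FKBP5 call was lost with median scaling, which gave 0.90.

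**Figure D3:**
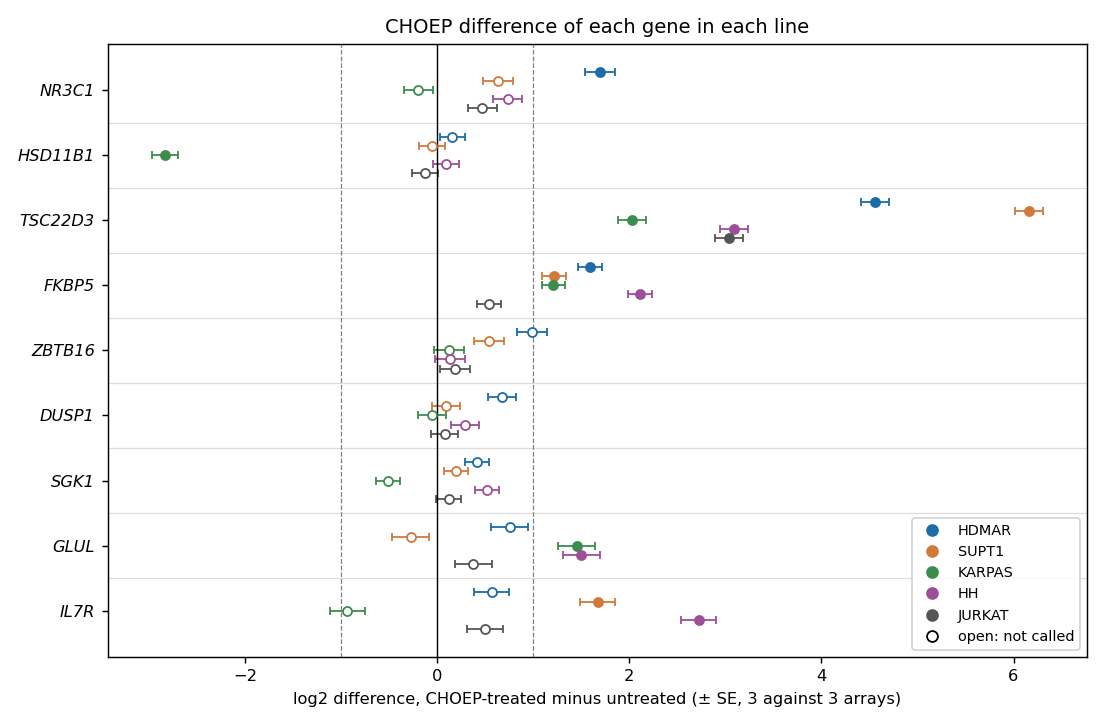
Log2 difference between CHOEP-treated and untreated arrays (x axis, ± SE, 3 against 3 arrays) of the brightest probe of 9 genes (y axis) in each line; filled points passed the call (fold change of at least 2, marked by dashed lines, and adjusted p under 0.05). TSC22D3 is called in 5 lines, NR3C1 in HDMAR, and the KARPAS point of HSD11B1 lies at -2.83.

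GLUL, glutamine synthetase, was called in KARPAS and HH. KARPAS read 7.51, 7.09 and 6.91 untreated and 8.67, 8.57 and 8.62 with CHOEP, a difference of 1.45 (SE 0.19). HH read 7.31, 7.32 and 7.12 against 8.85, 8.72 and 8.68, a difference of 1.50 (SE 0.19). HDMAR was not called, with 5.90, 5.81 and 5.86 against 6.73, 5.99 and 7.12, 1 treated array lying close to the untreated ones. Its treated arrays all lay above the untreated ones, none of which was above background, with a bound of at least 1.50-fold higher. The differences in JURKAT and SUPT1 were 0.38 and -0.27 near background. The difference between lines passed the test (adjusted p = 3.43e-05), and untreated KARPAS exceeded SUPT1 by 1.13 (adjusted p = 8.49e-06), where 1 of 3 arrays was above background. Of the other kept GLUL probes, ILMN_1653496 was detected on no untreated array of HH or KARPAS and was at least 1.27-fold and at least 1.05-fold higher there with CHOEP. ILMN_1835017 gave -0.04 in HH, where 1 of 6 arrays was above background, and 0.38 in KARPAS.

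IL7R encodes the alpha chain of the interleukin-7 receptor, which T cells are known to raise under glucocorticoids. HH went from 7.36, 6.86 and 7.004 to 9.76, 9.76 and 9.86, a difference of 2.72 (SE 0.18), and SUPT1 from 11.91, 12.06 and 11.90 to 13.65, 13.76 and 13.46, a difference of 1.67 (SE 0.18). HDMAR was at the top of the panel before treatment, at 13.30, 13.04 and 13.47, and differed by 0.57 (SE 0.18). JURKAT differed by 0.50 (SE 0.18). The second kept probe gave 0.95 (SE 0.13) in HDMAR, not called, and 1.62 in SUPT1. In HH no untreated array detected it, and it was at least 5.02-fold higher with CHOEP.

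In KARPAS the IL7R arrays read 6.25, 6.82 and 6.59 untreated and 5.50, 6.18 and 5.18 with CHOEP, with 2 untreated and no treated arrays above background. The treated arrays lay below, by a fitted difference of -0.93, with a bound of at least 1.20-fold lower, and the gene was not called. Untreated levels spanned 6.72 from HDMAR to KARPAS, and each neighbouring pair of lines was separated (adjusted p 1.21e-15 to 0.0173).

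SGK1, a kinase that controls ion channels and transporters, was high in HDMAR and JURKAT and near background in HH. Untreated arrays read 10.68, 10.62 and 10.60 in HDMAR, 9.99, 10.05 and 10.12 in JURKAT, and 6.02, 5.64 and 6.03 in HH, and the 4 lines above background were each separated from their neighbour (adjusted p 6.33e-08 to 0.0201). CHOEP differences ran from -0.51 (SE 0.13) in KARPAS, where 8.94, 9.05 and 9.08 became 8.49, 8.58 and 8.46, to 0.42 (SE 0.13) in HDMAR, and in HH the level was at least 1.06-fold higher. They differed between lines (adjusted p = 0.000477), though not with median scaling. The other 2 kept probes had the KARPAS arrays below as well, at -0.30 and -0.30.

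DUSP1, a phosphatase that switches off MAP kinases, read between 9.52 and 11.61 on all arrays. In HDMAR it went from 10.30, 10.60 and 10.60 to 11.17, 11.28 and 11.08, a difference of 0.68 (SE 0.15), and in the other 4 lines groups overlapped with differences from -0.05 to 0.29. The test between lines gave an adjusted p of 0.045 and passed in 5 of 9 other settings and with 11 of 30 arrays left out in turn, so it rests on the setting.

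ZBTB16, a zinc finger transcription factor also called PLZF, was detected on all JURKAT arrays, where it read 7.43, 7.40 and 6.99 untreated and 7.50, 7.55 and 7.35 with CHOEP, and on 1 further array, of treated HDMAR. That array, at 6.15 beside 5.52 and 5.51, was the highest of the HDMAR group, whose untreated arrays read 4.70, 4.81 and 4.71. The fitted difference in HDMAR was 0.99 (SE 0.16), just under the fold threshold, between readings that were nearly all below background. The probe passed the detection filter through JURKAT, so no test between lines is given for it here. The only probe of PER1, a circadian clock gene, was above background on 0 of 30 arrays, with readings from 4.71 to 5.43, so no response of PER1 could be measured.

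Whether receptor or enzyme transcript goes with the size of the response was read from the order of the 5 lines, which are too few for a correlation. By untreated NR3C1, read from its brightest probe, the order was KARPAS, HH, SUPT1, HDMAR and JURKAT. KARPAS and HH were not separated (limma, adjusted p = 0.0819). The second probe did not give this order. Untreated, it was highest in HDMAR (mean 6.18), the only line to detect it, and lowest in KARPAS (4.93). By the difference of the brightest TSC22D3 probe the 4 lines above background without drug stood in the order SUPT1, HDMAR, HH and KARPAS. KARPAS, first by the brightest receptor probe, thus came last of these. The TSC22D3 probe ILMN_2276952 did not show this order. It allowed only bounds, at least 23.7-fold in HH, 13.1-fold in HDMAR, 5.05-fold in KARPAS and 1.83-fold in SUPT1. JURKAT has no exact place by the brightest TSC22D3 probe, since its untreated arrays allow only a bound. That bound, at least 6.98-fold, lay above the 4.08-fold of KARPAS. With quantile normalisation alone JURKAT changed places with KARPAS (1.96 against 1.99). By FKBP5 difference it was HH, HDMAR, SUPT1, KARPAS and JURKAT, with SUPT1 and KARPAS closer than their SE. HH and KARPAS, next to each other in receptor transcript, thus differed by 2.11 against 1.21 in FKBP5 and by 3.09 against 2.03 in TSC22D3.

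**Figure D4:**
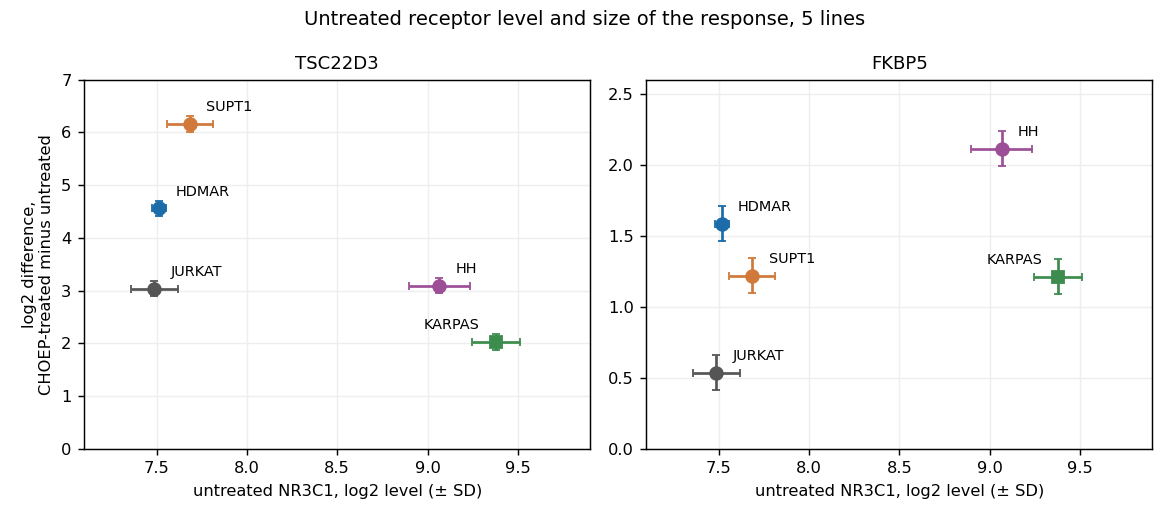
Untreated log2 level of the brightest NR3C1 probe (x axis, mean ± SD of 3 arrays) beside the log2 CHOEP difference (y axis, ± SE) of TSC22D3 and FKBP5, 1 point per line. The TSC22D3 value of JURKAT is a fitted one against untreated arrays below background, and the square is KARPAS, the line with detected HSD11B1. HH and KARPAS share a high level of this receptor probe, and HH lies above KARPAS for both genes.

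KARPAS was the one line with HSD11B1 above background. Its TSC22D3 difference, by the brightest probe, was the smallest of the 4 lines above background without drug. Its FKBP5 difference was within its SE of that of SUPT1, and its NR3C1 did not differ with CHOEP beyond its spread. HSD11B1 was not detected in SUPT1 and HDMAR, where the brightest TSC22D3 probe differed most. Untreated TSC22D3 was 7.15 in SUPT1, 9.43 in HDMAR, 10.94 in KARPAS and 11.26 in HH, beside differences of 6.16, 4.56, 2.03 and 3.09. SUPT1, HDMAR and HH thus stood in opposite orders by start and by difference. KARPAS had a smaller difference than HH, from a start not separated from that of HH. Whether the start or the enzyme bears on the size of the difference was not tested. In bulk RNA a change in the share of cells cannot be told apart from one in RNA per cell.

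Among 14 tested of 18 chaperones and cofactors of the receptor, 0 were called in any line, as were few of all genes (0% to 1.92% in each direction). Their medians ran from -0.36 in HH to 0.04 in KARPAS. FKBP4, the co-chaperone that competes with FKBP5, had the lowest mean difference, with -0.78 (SE 0.18) in SUPT1 and -0.56 in HH, followed by PTGES3 and HSP90AB1. Of the genes that handle glucocorticoids, H6PD, which supplies the cofactor of the HSD11B1 enzyme, was detected on all arrays of KARPAS and HDMAR and called in no line. NR3C2, the mineralocorticoid receptor gene, was detected in KARPAS and JURKAT only and fell by 1.18 (SE 0.18) in KARPAS. HSD11B2, ABCB1 and CYP3A5 passed no detection filter.

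Of 30 other genes known to be induced by glucocorticoids, 27 were tested, and this list was drawn up with earlier results of these arrays known. Up calls numbered 9 in HDMAR, 5 in SUPT1, 4 in KARPAS, 7 in HH and 2 in JURKAT, where 1.86%, 1.59%, 0.569%, 1.92% and 0.0481% of all genes rose. Down calls numbered 2, 1, 1, 0 and 0, where 1.8%, 0.817%, 0.729%, 0.857% and 0% of all genes fell. The list medians were 0.39, 0.27, 0.10, 0.08 and 0.13 in the same order of lines, beside medians of all genes between -0.01 and 0.01. ISG20, an antiviral exonuclease, had the highest mean and differed by 4.88 in SUPT1, 3.11 in HDMAR, 2.74 in HH, 1.63 in KARPAS and 0.90 in JURKAT, where it was not called. SUPT1, HDMAR, HH and KARPAS stood in the same order as for the brightest TSC22D3 probe.

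PIK3IP1, an inhibitor of PI3 kinase, differed by 4.40 in HDMAR and 3.58 in HH, and by 0.67 in KARPAS, where it was not called. DDIT4, which restrains mTOR, differed by 3.56 in HDMAR, 3.19 in HH, 2.20 in SUPT1 and 1.37 in JURKAT, and in KARPAS by 0.17 with overlapping groups. ANXA1, a classic glucocorticoid-induced anti-inflammatory gene, went the other way: it fell by 1.64 (SE 0.17) in SUPT1 and by 1.06 in HDMAR, and read -0.84 in KARPAS. TGFBR3 fell by 1.13 in HDMAR, and STOM was called in no line.

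**Figure D5:**
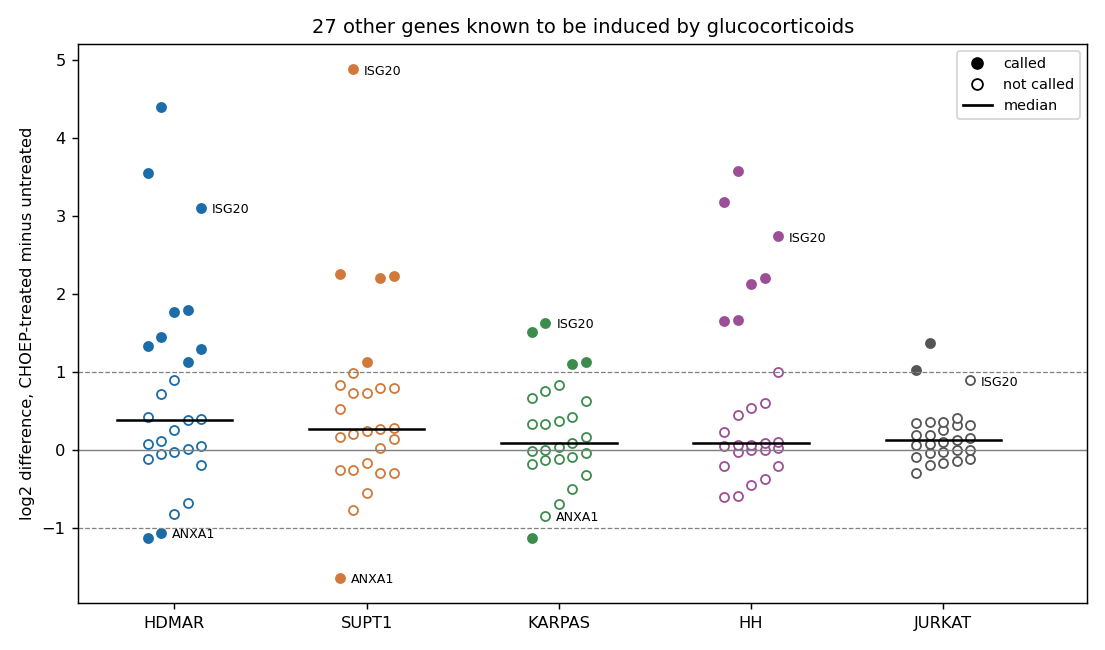
Log2 difference between CHOEP-treated and untreated arrays (y axis) of 27 other genes known to be induced by glucocorticoids, by line (x axis); filled points passed the call, dashed lines mark a fold change of 2 and black bars are list medians. HDMAR has 9 up calls and JURKAT 2, and ANXA1 lies below -1 in HDMAR and SUPT1.

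Of 14 genes known to be repressed by glucocorticoids, 4 were above background often enough to test. TNF fell by 2.17 (SE 0.12) in KARPAS, from a mean of 11.49 to 9.32. In HH it was detected on the 3 untreated and on no treated array, at least 2.56-fold lower, and in the other 3 lines it was detected on no array. IL4, CXCL8 and CCL3 were called in no line.

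Over the 30 arrays, the genes whose log2 level followed that of NR3C1 most closely were SNAPC1 (Pearson's r = 0.92), ZNF682 (0.90), CCDC125 (0.90), TCAF2 (0.90) and HIPK2 (0.89). Those whose deviation from their line's untreated mean followed that of TSC22D3 were ISG20 (0.95), BTG1 (0.94), SMAP2 (0.93), H2BC5 (0.93) and CASTOR1 (0.93). The arrays share 5 lines and 2 conditions and are not 30 independent samples, so these values are descriptions.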

How the data were processed

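Gene expression was analysed in 5 malignant T-cell lines, untreated or CHOEP-treated, with 3 arrays per group, assigned to line, treatment and replicate by the labels. The authors deposited 2 tables: the signal intensity of each probe from BeadStudio (version 3 in the submitters' processing notes), not normalised, with a detection p-value, and log2 values after robust spline normalisation in lumi. From the intensities, log2 levels were made with neqc of limma 3.58.1 (R 4.3.3, offset 16), which corrects background and applies quantile normalisation, with the detection p-values standing in for control probes. A probe was kept if its detection p was below 0.01 on 3 or more arrays. One fit over the 10 groups (20 residual degrees of freedom) gave CHOEP differences, untreated differences between lines and F tests, and p was adjusted by Benjamini-Hochberg over every kept probe. The probe of highest mean log2 level stood for its gene. Where a probe was detected on no array of 1 group, the fold change is a bound, taken against the lowest detected signal of each of those arrays or the probe's own if that was higher.

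Members and lists were chosen with earlier results of these data known, and CHOEP differences of the members are given without p-values. Besides the members, the 3 genes of largest and the 3 of smallest mean difference in a list were eligible to be named, and the 5 genes most like NR3C1 and TSC22D3. GEO's platform table gave the gene symbols: 30113 probes with values had 1 symbol, 8 had several and 17202 had none, and 30074 could be matched to RefSeq by Entrez number. Arrays were not paired by replicate number: the residuals of same-numbered arrays correlated by more than 0.1 in 3 of 15 cases. No arrays were identical (highest correlation 0.9958). The number of arrays limits the precision. The fits were tested on simulated data.

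Alternatives were the authors' log2 values, quantile normalisation alone, median scaling, neqc run separately in each line, keeping all probes, keeping probes detected on every array of some group, any other probe of a gene, a replicate block, a robust fit with an intensity trend, calls with no fold threshold, separate fits of each line, and leaving out each array in turn.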

Additional observations from a re-analysis of the deposited data

Results flagged for a closer look

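The CHOEP difference was compared between lines in 6 members, those whose differences had not been seen earlier, and all 6 passed limma's F test. The test was adjusted over all kept probes, and 35.1% of all genes also passed. HSD11B1 and ZBTB16 are among the 6 but are not read as results, for the reasons given below. The adjusted p was 4.72e-06 for NR3C1, highest in HDMAR, 3.43e-05 for GLUL, highest in HH and KARPAS, 0.000477 for SGK1, lowest in KARPAS, and 0.045 for DUSP1, highest in HDMAR. HSD11B1 (adjusted p = 3.3e-12) passed the detection filter through KARPAS alone and could fall nowhere else, so its p says nothing more. ZBTB16 (adjusted p = 0.00979) passed the filter through JURKAT, and its readings in the other lines were below background except on 1 array of CHOEP-treated HDMAR. For IL7R all CHOEP-treated arrays lay below the untreated arrays in KARPAS (-0.93) and above them in the other 4 lines; this difference was not tested.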

How the results depend on the processing

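Of the alternatives, each changing 1 choice, most left the counts of called members within 1.5 times of the main ones. Without a fold threshold 8 members passed in HDMAR and 5 in SUPT1, against 3 in each with it. The share of all genes that passes without a fold threshold is not given here. The shares of called genes given above include that threshold, so they are no background for the counts of 8 and 5. Leaving out 1 array in turn gave 3 to 5 calls in HDMAR (5 without CHOEP-treated replicate 2, which added ZBTB16 and GLUL), 4 to 5 in KARPAS (5 without untreated replicate 1 or CHOEP-treated replicate 2, which added IL7R), 5 to 6 members that differed between lines, and the same counts elsewhere. With the replicate number as a replicate block the calls in each line were the same genes, 9 members still differed untreated (HSD11B1 and ZBTB16 being above background untreated in 1 line only), and 5 rather than 6 differed between lines in their CHOEP difference, DUSP1 being lost. With another probe of each gene GLUL in HH turned to -0.0390748, and 23 of 35 values moved by more than 1 SD between replicates. So did 28 of 45 with median scaling, which shifted the median of all genes by -0.14 in HDMAR and -0.15 in SUPT1, took FKBP5 off the calls in SUPT1 and gave 4 members that differed between lines. Dim readings limit HSD11B1, ZBTB16, PER1 and the untreated TSC22D3 of JURKAT, where the size of a difference differed with the background correction. All counts of members whose CHOEP difference differed between lines include HSD11B1 and ZBTB16, which passed the detection filter through 1 line each.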
